A study of Mus musculus with 45 samples.

Results

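The Hippo pathway and TEAD genes described here were 10 genes picked by symbol from a table of 55385: the coactivators Yap1 and Wwtr1, the DNA-binding factors Tead1, Tead2 and Tead4, the kinases Lats1 and Lats2, the scaffold Nf2, and the angiomotins Amot and Amotl2. They were chosen by name, and all 10 matched exactly 1 gene identifier and had enough counts to be tested at all 4 stages. The RNA-seq libraries numbered 18 of the 45 samples of a mouse study on GABPA, an ETS-family transcription factor, in early embryos, and the other samples were not analysed here. In every library, controls included, both Gabpa alleles carried the dTAG degron (genotype Gabpa-dTAG/dTAG), so that the compound dTAG13 removes the GABPA protein. Controls received the solvent DMSO. The late 2-cell groups (n = 3 each) were treated from 6 h to 30 h post fertilization (hpf). The morula groups (n = 2 each) were treated from 42 hpf. The E4.5 ICM groups (n = 2 each) were treated from 84 hpf and collected at 100 hpf. Their inner cell masses were isolated by immunosurgery, which kills the outer trophectoderm, and so mixed epiblast and primitive endoderm. Embryos received 1 µM dTAG13. The 2iES groups (n = 2 each) were E14 mouse embryonic stem cells in 2i/LIF medium, given 0.5 µM dTAG13 for 24 h, and stand for cultured cells that carry the edited alleles. The timing of treatment and the material therefore changed with stage, and the dose differed between embryos and 2iES.

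In the Hippo pathway, cell contact and polarity switch on the LATS1 and LATS2 kinases, which phosphorylate YAP (encoded by Yap1) and its paralogue TAZ (encoded by Wwtr1) and keep them out of the nucleus. Unphosphorylated YAP and TAZ enter the nucleus and bind TEAD factors, which contact DNA. NF2 and the angiomotins help to activate LATS at cell junctions. In the morula this switch separates outer cells, where TEAD4 with YAP turns on trophectoderm genes such as Cdx2 and Gata3, from inner cells. Because the pathway acts through phosphorylation and localization, RNA levels describe the supply of its parts and not its activity.

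Totals ran from 9457933 to 12382705 expected counts per library for morulae and from 18266057 to 27660132 for the other stages. The leukocyte markers summed to 285 TPM in replicate 1 of the late 2-cell dTAG13 libraries and to 5.73 to 11 TPM in the other late 2-cell libraries. The E4.5 ICM replicates were unusually close: the biological coefficient of variation was 0.0237 there, against 0.159 in 2iES, 0.213 in morulae and 0.284 in late 2-cell embryos, and the standard errors were smallest there. The median chi-square of the replicates' counts over that of sampling alone was 1.62 and 1.69 in the ICM groups and 2.86 to 16.1 in the others, so that p-values in the ICM rest on a spread little above counting noise, which may be technical. Gabpa RNA does not check the degradation, which acts on protein. Its level was higher in every dTAG13 library than in every DMSO library of the same stage, for example at 27.5 and 27.3 TPM against 10.1 and 11.2 TPM in the ICM. The stage markers followed the labels. The oocyte list summed to at least 1364 TPM in late 2-cell embryos, and the primitive endoderm list to at least 1632 TPM in the ICM.

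On GRCm38, Yap1 lies at chr9:7931999-8004596 on the minus strand and Wwtr1 at chr3:57455649-57575910 on the minus strand. Amotl2 lies at chr9:102716672-102733418 and Lats1 at chr10:7681214-7716460, both on the plus strand. Tead1 lies at chr7:112679318-112906807 and Tead2 at chr7:45215753-45233644, both on the plus strand, and Tead4 at chr6:128224288-128300823 on the minus strand. Lats2 lies at chr14:57689662-57758388, Nf2 at chr11:4765845-4849536 and Amot at chrX:145446425-145505181, all on the minus strand. The RefSeq promoter table (GRCm38.p6, from 250 bases before to 50 bases after a start site) held 11 entries for 8 of the 10 genes, and none was listed for Tead1 and Tead4. Promoters are shown for the 3 genes with the largest count differences in the E4.5 ICM (Wwtr1, Amotl2 and Yap1) and for Lats1, which rose in 2iES. Capitals mark GGAATG or its reverse complement CATTCC, the core letters that TEAD factors recognize. No capitals appear in Lats1.
Wwtr1, chr3:57575861-57576160, minus strand: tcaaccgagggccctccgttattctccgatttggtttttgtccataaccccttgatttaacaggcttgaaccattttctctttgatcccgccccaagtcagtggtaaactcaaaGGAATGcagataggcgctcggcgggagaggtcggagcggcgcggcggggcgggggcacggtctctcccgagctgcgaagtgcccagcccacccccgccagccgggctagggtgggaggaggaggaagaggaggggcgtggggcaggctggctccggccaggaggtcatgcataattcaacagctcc
Amotl2, chr9:102717554-102717853, plus strand: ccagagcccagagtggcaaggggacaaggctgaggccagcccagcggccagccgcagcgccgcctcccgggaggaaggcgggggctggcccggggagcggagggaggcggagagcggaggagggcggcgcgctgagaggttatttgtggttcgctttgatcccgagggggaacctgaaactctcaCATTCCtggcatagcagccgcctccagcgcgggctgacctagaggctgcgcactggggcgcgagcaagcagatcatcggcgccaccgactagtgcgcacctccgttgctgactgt
Yap1, chr9:8004547-8004846, minus strand: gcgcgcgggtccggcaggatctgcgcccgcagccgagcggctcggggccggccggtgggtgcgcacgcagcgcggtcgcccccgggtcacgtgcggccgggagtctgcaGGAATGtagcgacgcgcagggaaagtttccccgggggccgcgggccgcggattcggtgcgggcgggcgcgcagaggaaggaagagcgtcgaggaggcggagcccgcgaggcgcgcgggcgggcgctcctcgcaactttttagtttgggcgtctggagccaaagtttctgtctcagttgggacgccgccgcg
Lats1, chr10:7680959-7681258, plus strand: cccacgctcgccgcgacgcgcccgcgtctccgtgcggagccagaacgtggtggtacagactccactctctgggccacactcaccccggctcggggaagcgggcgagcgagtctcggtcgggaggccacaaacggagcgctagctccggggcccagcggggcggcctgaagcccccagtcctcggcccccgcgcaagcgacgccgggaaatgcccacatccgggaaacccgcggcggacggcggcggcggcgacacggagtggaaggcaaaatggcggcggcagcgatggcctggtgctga
The TEAD letters stood in 5 of the 11 windows and in 14.7% of all 32851 promoter windows of this length. These windows belonged to 4 of the 8 genes (Wwtr1, Yap1, Amotl2 and Lats2), and a share per gene was not computed for all genes. The Wwtr1 windows overlap and share their match. Counted from the start site, with negative positions before it, the first base of the match lay at -136 in the Wwtr1 window shown, at -141 in Yap1 and at -65 in Amotl2. The letters CCGGAAG, a core that ETS factors such as GABPA recognize, or their reverse complement CTTCCGG, stood in none of the 11 windows and in 8.86% of all windows. These are matches of letters in 1 short window per start site, not binding sites.

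The control embryos show the supply of each part as development proceeds. Levels are in TPM (a share of all transcripts in a library), which is scaled for transcript length, while tests used counts, which are not, so that the scales part where the estimated transcript length of a gene changed. In such bulk samples fewer cells of a type and less RNA per cell cannot be told apart. Of the 10 genes, 7 were higher and 2 lower in morulae than in late 2-cell embryos at an adjusted p under 0.05, where 31.2% of the 19830 genes tested were higher and 38% lower. From morula to E4.5 ICM, 1 was higher and 3 were lower, against 24.6% and 21% of all genes. From E4.5 ICM to 2iES, 1 was higher and 6 were lower, against 21.9% and 20.7%.

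The coactivators went opposite ways from late 2-cell to morula. Yap1 measured 19.5, 14.9 and 18.5 TPM in the control late 2-cell libraries, 9.10 and 6.88 TPM in morulae, 8.31 and 8.59 TPM in the ICM and 2.21 and 2.91 TPM in 2iES. The late 2-cell libraries stood above all others and the 2iES libraries below all others, while morula and ICM did not differ beyond their spread (adjusted p = 0.387). Wwtr1 measured 8.18, 6.85 and 7.00 TPM in late 2-cell embryos, 12.5 and 10.7 TPM in morulae, 16.6 and 16.9 TPM in the ICM and 4.09 and 4.11 TPM in 2iES. Wwtr1 rose from late 2-cell to morula by 0.97 ± 0.15 (log2 fold change of counts ± SE, adjusted p = 1.1e-04), and the step to the ICM did not pass (adjusted p = 0.434). Yap1 exceeded Wwtr1 in each control late 2-cell library, and Wwtr1 exceeded Yap1 in each control library of the other 3 stages.

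Tead4, the TEAD factor needed for trophectoderm in the mouse, peaked in morulae. It measured 10.5, 9.24 and 11.5 TPM in control late 2-cell embryos, 24.0 and 20.6 TPM in morulae, 14.3 and 12.7 TPM in the ICM and 2.79 and 2.23 TPM in 2iES. The rise to the morula was 1.43 (log2, adjusted p = 9.0e-06), and the falls to the ICM (adjusted p = 5.0e-04) and from there to 2iES (adjusted p = 1.6e-05) both passed. Tead1 and Tead2, which bind the same DNA letters, had lower levels in late 2-cell embryos, with Tead1 at 1.74 to 2.63 TPM and Tead2 at 2.84 to 3.16 TPM. Tead1 reached 9.39 and 9.27 TPM in the ICM and 3.32 and 5.31 TPM in 2iES, and neighbours in the order ICM, morula, 2iES did not differ beyond their spread (adjusted p = 0.428 and 0.205). ICM and 2iES, the ends of that order, lay at the threshold (adjusted p = 0.0499), and Tead1 missed it, with adjusted p of 0.0516 to 0.320, when any single control library other than 2iES DMSO replicate 2 was left out. Tead2 was highest in 2iES, at 9.43 and 8.40 TPM, against 8.33 and 6.63 TPM in the ICM. The Tead2 libraries were apart by only a small gap, with a log2 difference in counts of 0.76 ± 0.24 (adjusted p = 0.021). This difference missed the threshold without either ICM library or without 2iES DMSO replicate 2, at 0.63 to 0.83. It also missed it in edgeR on library totals (0.29, adjusted p = 0.351) and in limma on log2(TPM + 1) (0.23, adjusted p = 0.342).

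Among the upstream parts, Nf2, which encodes the scaffold Merlin, was highest in late 2-cell embryos at 25.6, 32.9 and 26.9 TPM and lay between 3.67 and 7.37 TPM in every later control library. Its counts fell by 0.87 on the log2 scale from late 2-cell to morula (adjusted p = 7.7e-04), a smaller step than the TPM show, as its effective length was 1682 bases in the first and 2954 bases in the second. The angiomotins were close to absent in late 2-cell embryos, where Amot measured 0.76, 0.34 and 0.53 TPM and Amotl2 0.38, 0.14 and 0.08 TPM, the latter on 6 to 28 counts. Both rose into the morula, by 4.38 ± 0.27 for Amot and 5.47 ± 0.40 for Amotl2 on the log2 scale (adjusted p = 3.7e-08 and 1.2e-07). Amot then fell from 9.91 and 8.10 TPM in morulae to 4.38 and 4.25 TPM in the ICM (adjusted p = 0.0013), while Amotl2 measured 7.59 and 6.68 TPM in morulae and 16.4 and 16.9 TPM in the ICM, a difference of 0.85 ± 0.35 on the log2 scale of counts (adjusted p = 0.0655). The Amotl2 difference passed in some other fits of the counts, with adjusted p of 0.0081 without the filter, 0.030 over all 18 libraries, 0.042 on library totals, and 0.015 and 0.026 without late 2-cell DMSO replicate 1 or 3. In 2iES Amot was lowest, at 0.12 and 0.19 TPM, and Amotl2 measured 2.62 and 3.75 TPM.

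Of the LATS kinases, Lats1 stayed between 0.53 and 1.67 TPM in every control library, and no neighbouring pair in the order of its levels differed beyond the spread. The step from morula to ICM passed narrowly (log2 0.81 ± 0.29, adjusted p = 0.041), and it missed the threshold, with adjusted p of 0.0524 to 0.214, without late 2-cell DMSO replicate 2 or without any of the 4 morula and ICM control libraries. Lats2 rose from 0.68, 0.58 and 1.20 TPM in late 2-cell embryos to 8.45 and 6.33 TPM in morulae (log2 4.44 ± 0.39, adjusted p = 6.3e-07), and measured 3.31 and 3.70 TPM in the ICM. Lats2 values are the least certain of the set. Of its exonic bases, 42.4% are shared with Gm49361, an annotated gene on the same strand, to which at most 2.48 counts were assigned in any library. The libraries did not mark strand, and Yap1 shares 1.25% of its exonic bases with Gm20416 and Tead2 13 bases with Cd37, both on the opposite strand, so that reads from these stretches cannot be told apart.

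**Figure D1:**
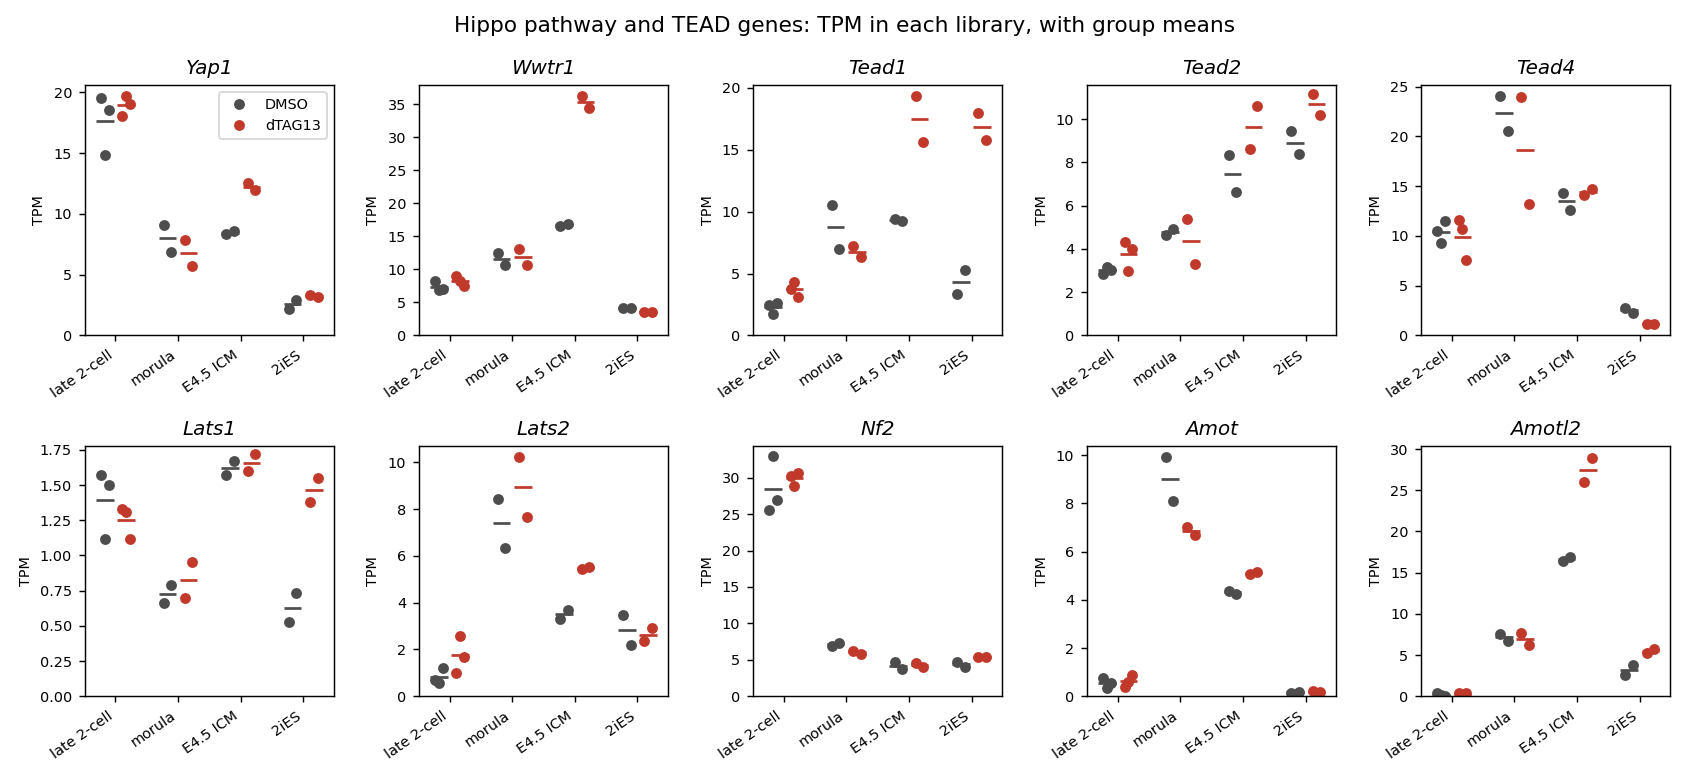
TPM of the 10 genes (vertical axes, each from 0) in every library, by stage (horizontal axes), with DMSO in grey, dTAG13 in red and a bar at each group mean. Wwtr1, Amotl2, Yap1 and Tead1 stand higher with dTAG13 in the E4.5 ICM, and Tead1 and Lats1 do in 2iES, while the late 2-cell and morula groups mostly overlap.

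The effect of dTAG13 was then compared within each stage, where a gene passed at an adjusted p under 0.05 and was called if it also changed at least 2-fold with a mean FPKM (fragments scaled by length and depth, used only for this threshold) of at least 1 in either group. In late 2-cell embryos none of the 10 genes passed, against 7.24% of 17421 genes tested that were lower and 1.32% higher, and 4.11% were called. At an unadjusted p under 0.05 the number was also 0. DESeq2 and limma passed 0 as well. The largest difference was that of Lats2, with 0.68, 0.58 and 1.20 TPM in DMSO and 1.01, 2.56 and 1.68 TPM in dTAG13, on 7.62 to 76 counts per library (log2 0.98 ± 0.61, adjusted p = 0.415). Its groups overlapped. Tead1 was the 1 gene whose groups were apart, at 2.47, 1.74 and 2.63 TPM against 3.71, 4.33 and 3.10 TPM (log2 of counts 0.49 ± 0.25, adjusted p = 0.292), and the groups were apart for 27.4% of all genes tested. Tead2, too, had overlapping groups, at 2.84 to 3.16 TPM in DMSO and 2.98 to 4.30 TPM in dTAG13. For the coactivators, the log2 differences of counts were 0.04 ± 0.12 for Yap1 and 0.10 ± 0.14 for Wwtr1, with 18.01 to 19.73 TPM of Yap1 and 7.52 to 8.96 TPM of Wwtr1 in dTAG13. Nf2 measured 25.6 to 32.9 TPM in DMSO and 28.9 to 30.7 TPM in dTAG13, and Tead4 9.24 to 11.5 TPM and 7.53 to 11.6 TPM. Over the 10 genes the median log2 difference was 0.11, beside 0.02 for all genes tested. Without the replicate that held leukocyte markers, none passed either.

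In morulae none of the 10 genes passed, against 0.205% of 13667 genes that were lower and 0.161% higher, with 0.351% called, and the number at an unadjusted p under 0.05 was also 0. DESeq2 and limma passed 0 as well. Amot was lower in both dTAG13 libraries, at 7.03 and 6.69 TPM against 9.91 and 8.10 TPM (log2 -0.40 ± 0.21, adjusted p = 0.415), and Nf2 was at 6.27 and 5.85 TPM against 6.91 and 7.37 TPM (adjusted p = 0.740). These were the 2 genes whose groups did not overlap, as for 43.6% of all genes. Tead4 measured 24.0 and 20.6 TPM in DMSO and 23.9 and 13.2 TPM in dTAG13, so that 1 treated library was level with the controls and the other below them. Yap1 measured 9.10 and 6.88 TPM against 7.82 and 5.70 TPM, and Wwtr1 12.5 and 10.7 TPM against 13.04 and 10.63 TPM. Lats2 and Amotl2, both abundant at this stage, also overlapped, at 10.2 and 7.65 TPM and at 7.68 and 6.19 TPM with dTAG13. The median log2 difference over the 10 genes was -0.06, beside -0.02 for all genes tested. The standard errors of the 10 genes ran from 0.20 for Wwtr1 to 0.35 for Lats1 on the log2 scale.

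In the E4.5 ICM, 6 of the 10 genes passed and all 6 were higher with dTAG13: Wwtr1, Amotl2, Yap1, Tead2, Tead1 and Amot. Of all 15840 genes tested, 38.4% passed higher and 38.5% lower, so that most genes passed at this stage. Wwtr1 was the only member called, where 25.3% of all genes were. It rose from 16.6 and 16.9 TPM in DMSO to 36.3 and 34.4 TPM in dTAG13, 2.11-fold by mean TPM (log2 of counts 1.03 ± 0.04, adjusted p = 1.1e-23). The treated libraries stood far above both controls, but the fold lay close to the 2-fold limit, and without dTAG13 replicate 1 it was 0.99 on the log2 scale and no member was called. Amotl2 went from 16.4 and 16.9 TPM to 25.9 and 29.0 TPM (log2 0.66, adjusted p = 9.2e-15). Yap1 went from 8.31 and 8.59 TPM to 12.5 and 12.0 TPM (log2 0.45, adjusted p = 2.0e-08). The remaining steps were small on counts, at 0.25 for Tead2 (adjusted p = 0.033), 0.21 for Tead1 (adjusted p = 0.0025) and 0.20 for Amot (adjusted p = 0.010). Tead2 measured 8.33 and 6.63 TPM against 8.60 and 10.6 TPM, and Amot 4.38 and 4.25 TPM against 5.09 and 5.17 TPM, so that the treated libraries lay above the controls by a narrow margin. Tead4, Nf2, Lats1 and Lats2 did not pass, with Tead4 at 14.3 and 12.7 TPM against 14.1 and 14.7 TPM, and Lats1 at 1.57 and 1.67 TPM against 1.60 and 1.72 TPM. Nf2 overlapped at 4.68 and 3.67 TPM against 4.58 and 3.95 TPM, whereas Lats2, at 3.31 and 3.70 TPM against 5.45 and 5.54 TPM, was apart on this scale and not on counts (log2 0.10 ± 0.12, adjusted p = 0.464).

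Only Wwtr1 passed in the ICM when the spread was estimated over all 18 libraries (adjusted p = 2.9e-05), with Yap1 at 0.058 and Amotl2 at 0.10. Without DMSO replicate 2 the count fell to 3, as Tead1, Tead2 and Amot missed the threshold (adjusted p = 0.058, 0.127 and 0.078), and Tead2 also missed it without dTAG13 replicate 2 (log2 0.11, adjusted p = 0.442). Markers of outer cells moved in the same libraries. The 9 trophectoderm markers summed to 66.8 and 72.8 TPM in DMSO and to 778 and 779 TPM in dTAG13, and all 8 that could be tested rose, among them Elf5 (0.02 and 0.17 TPM against 5.64 to 6.96 TPM) and Krt18 (22.8 and 24.9 TPM against 476 to 481 TPM). At or over 1 TPM were 4 of the 9 in DMSO and 7 in dTAG13, while Hand1 was at most 0.06 TPM in every ICM library and at 0 in 1 library of each group. In control morulae, which include outer cells, the list summed to 347 and 360 TPM. The primitive endoderm list went from 1632 and 1674 TPM to 2687 and 2704 TPM and the epiblast list from 872 and 899 TPM to 420 and 428 TPM. Of the 10 primitive endoderm genes 7 passed higher and 2 lower, and all 9 epiblast genes passed lower, against 38.4% and 38.5% of all genes. Sparc made up most of the primitive endoderm sum, at a mean of 1070 TPM in DMSO and 1593 TPM in dTAG13. The part of these markers in the results for Wwtr1, Amotl2 and Yap1 was not tested.

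In 2iES, Tead1, Lats1 and Amotl2 rose with dTAG13 and Tead4 fell, so that 4 of the 10 genes passed. Of 15511 genes tested, 26.5% were higher and 28.1% lower. Tead1 and Lats1 were called, where 28% of all genes were. Tead1 went from 3.32 and 5.31 TPM to 17.9 and 15.8 TPM, 3.91-fold by mean TPM (log2 of counts 1.55 ± 0.26, adjusted p = 0.0027). The treated libraries stood well apart from the controls, although the controls differed from each other, and leaving out a control library moved the log2 value to between 1.20 and 2.01. Lats1 went from 0.53 and 0.73 TPM to 1.38 and 1.55 TPM (log2 1.27 ± 0.22, adjusted p = 0.0032). Amotl2 went from 2.62 and 3.75 TPM to 5.22 and 5.78 TPM (log2 0.83, adjusted p = 0.013). Tead4 went from 2.79 and 2.23 TPM to 1.18 and 1.20 TPM, and its counts fell by 0.83 on the log2 scale (adjusted p = 0.013). Amotl2 and Tead4 no longer passed when either dTAG13 library was left out, with adjusted p of 0.056 to 0.098, with log2 values of 0.77 and 0.85 for Amotl2 and -0.87 and -0.82 for Tead4.

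The other 6 genes did not pass in 2iES. Wwtr1, which rose most in the ICM, was at 4.09 and 4.11 TPM in DMSO and 3.51 and 3.52 TPM in dTAG13 (log2 -0.15 ± 0.14, adjusted p = 0.402). Yap1 went from 2.21 and 2.91 TPM to 3.29 and 3.18 TPM (log2 0.41, adjusted p = 0.115). Tead2 measured 9.43 and 8.40 TPM against 11.2 and 10.2 TPM, and Nf2 4.75 and 3.96 TPM against 5.36 and 5.43 TPM, both higher in the treated libraries by TPM but with adjusted p of 0.499 and 0.365 on counts. Lats2 overlapped, at 3.48 and 2.17 TPM against 2.35 and 2.90 TPM. Amot stayed at or below 0.21 TPM, on 24 to 43 counts. The trophectoderm list did not separate the groups here, summing to 108 and 139 TPM in DMSO and 127 and 133 TPM in dTAG13. The primitive endoderm sum did, at 162 to 203 TPM against 124 to 128 TPM, but most of it was Sparc, with means of 178 and 121 TPM. In each 2iES library only 2 or 3 of the 10 genes were at or over 1 TPM. Of the others, Gata6, Pdgfra and Col4a1 had higher means with dTAG13, and Dab2 and Lama1 had lower ones. The epiblast list, of which 4 of 9 genes fell, summed to 621 and 686 TPM against 399 and 432 TPM. The part of these markers in the 2iES results was not tested. The TPM ranges of the groups did not overlap for 8 of the 10 genes in 2iES and for 7 in the ICM, against 77.9% and 84.8% of all genes tested.

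**Figure D2:**
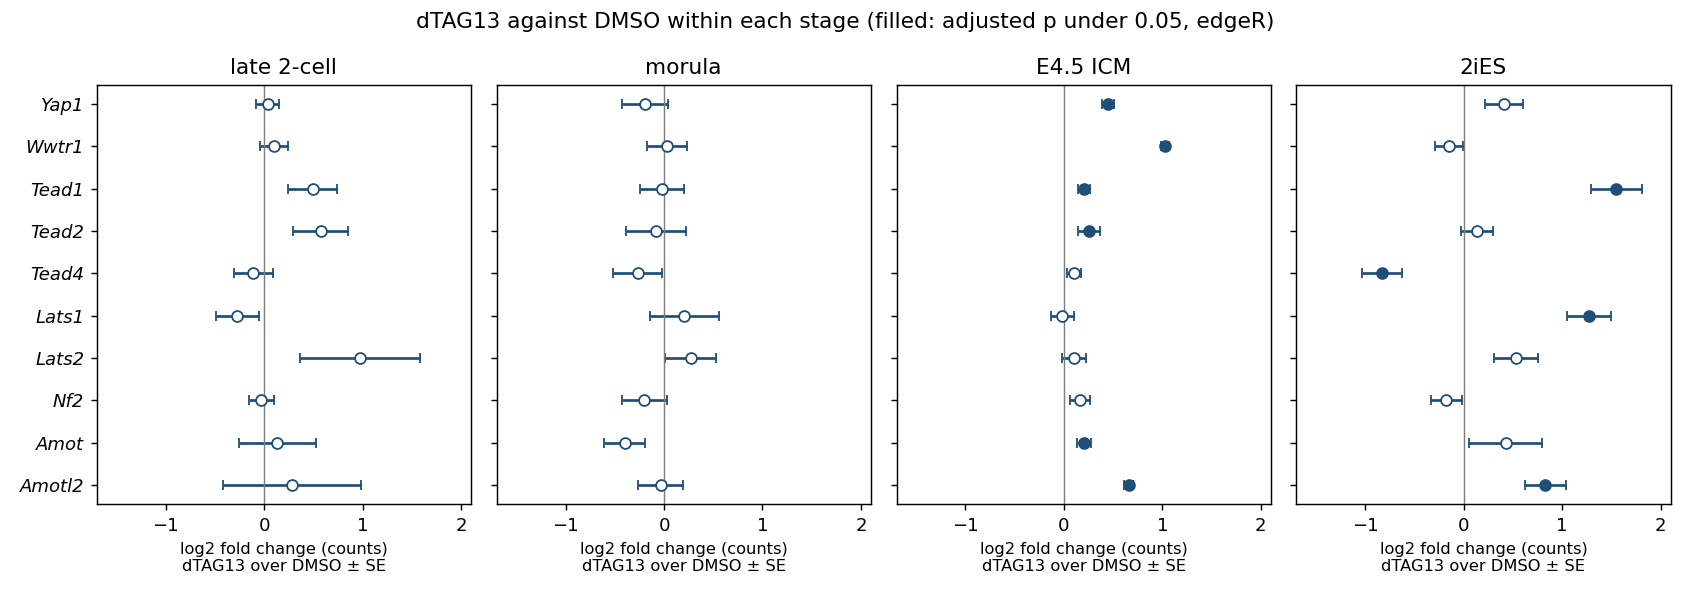
Log2 fold change of counts, dTAG13 over DMSO, with its standard error (horizontal axes), for the 10 genes (vertical axis) in each stage. Filled points passed at an adjusted p under 0.05: none at late 2-cell and morula, 6 in the E4.5 ICM, where the errors are smallest, and 4 in 2iES.

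Whether an effect differed between stages was tested directly as an interaction in a fit of all 18 libraries, which uses the wider shared spread. Wwtr1 responded differently in the ICM from both neighbours: its log2 effect was larger there than in morulae by 0.93 ± 0.20 (adjusted p = 0.0044), and it was lower in 2iES than in the ICM (difference -1.14 ± 0.21, adjusted p = 0.0010). Tead1 rose more in 2iES than in the ICM, by 1.38 ± 0.30 (adjusted p = 0.0043), and Lats1 by 1.33 ± 0.36 (adjusted p = 0.017). For no member did the difference between late 2-cell and morula pass, where the number at an unadjusted p under 0.05 was also 0 and DESeq2 and limma passed 0. The counts of 0, 1 and 3 members compare with 6.47%, 16.1% and 17.4% of the 21915 genes tested. The Lats1 difference kept a size of 1.10 to 1.34 but missed the threshold (adjusted p of 0.057 to 0.086) when any of the 4 ICM libraries, 2iES DMSO replicate 1 or 2iES dTAG13 replicate 2 was left out. For Amotl2, which passed in the ICM and in 2iES, the difference between those effects was 0.21 ± 0.43 (adjusted p = 0.865).

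The shares of the TEAD factors are given as a description. Tead4 made up 65.3% to 66.9% of the summed TPM of Tead1, Tead2 and Tead4 in control late 2-cell embryos, 61.3% and 63.3% in morulae, 44.7% and 44.3% in the ICM and 18% and 14.0% in 2iES. With dTAG13 the Tead4 share was 33.6% and 35.9% in the ICM and 3.90% and 4.42% in 2iES, below both controls at each stage. The Tead1 share was 46.0% and 38.2% in the treated ICM against 29.3% and 32.5%, and 59.2% and 58.0% in treated 2iES against 21.4% and 33.3%. Thus Tead2 was the most abundant of the 3 in control 2iES, and Tead1 in treated 2iES. In late 2-cell embryos Tead4 was at 51.5% to 59.3% under dTAG13, below the 3 controls, whereas the morula libraries overlapped. These shares follow from the TPM of the genes and were not tested. No Tead gene passed at late 2-cell, and in the ICM the Tead4 level itself overlapped between the groups while the TPM of Tead1 was higher.

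**Figure D3:**
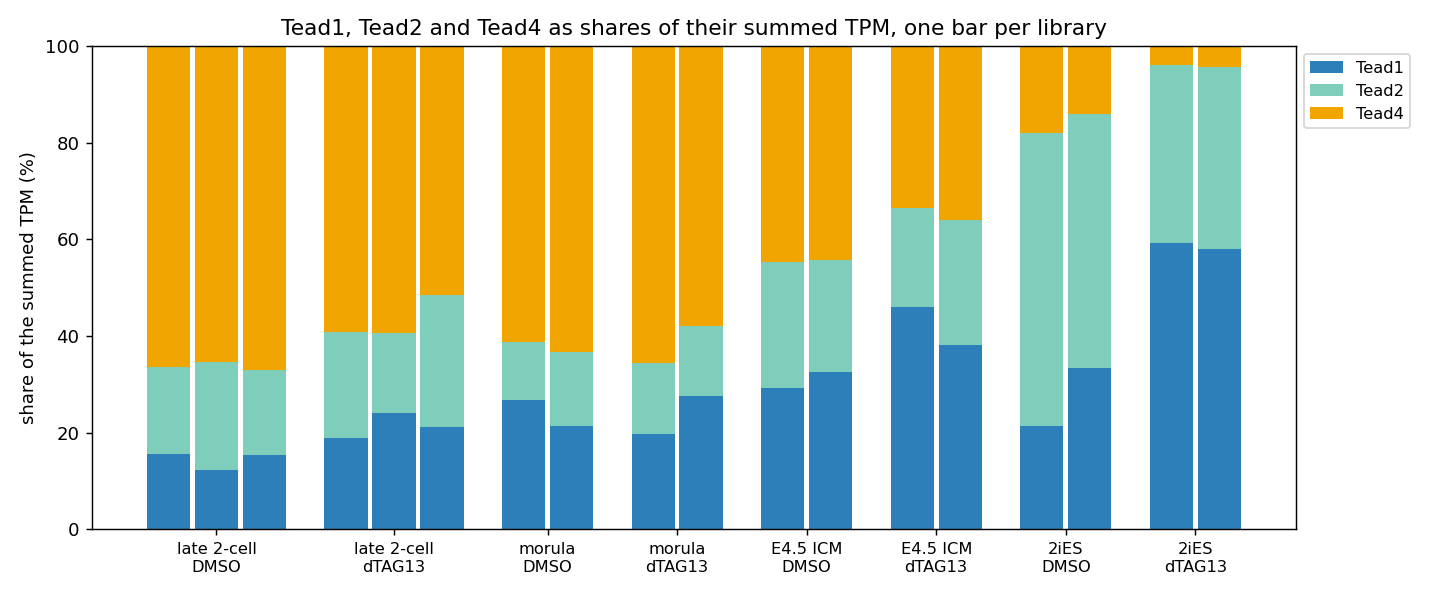
Shares of Tead1, Tead2 and Tead4 in their summed TPM (vertical axis, percent), with 1 stacked bar per library, by group (horizontal axis). The Tead4 share shrinks from about 66% in control late 2-cell embryos to 14.0% and 18% in control 2iES and to 3.90% and 4.42% with dTAG13.

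Counts and TPM did not always tell the same story, because the estimated length of the transcripts in use changed. For Tead1 in the ICM the counts were 858 and 740 in DMSO and 862 and 925 in dTAG13, while the TPM rose from 9.39 and 9.27 to 19.3 and 15.6. The effective length, an abundance-weighted average over a gene's transcripts, was 3933 bases in DMSO and 2545 bases in dTAG13, so that the log2 ratio was 0.91 by TPM and 0.21 by counts. Tead1 has 15 annotated transcripts of 546 to 9964 bases, and which of them were used was not analysed here. In 2iES its length fell likewise, from 3375 to 2442 bases, and it rose on both scales. Lats2 differed in the same way in the ICM (log2 0.65 by TPM and 0.10 by counts, with a length of 3255 against 2301 bases), where it passed in limma on TPM (adjusted p = 0.0090). Lats2 and Nf2 changed sign between the scales in 2iES: Nf2 was 0.31 by TPM and -0.18 by counts, and Lats2 was -0.11 by TPM and 0.53 by counts. For Wwtr1, Yap1, Lats1, Amot and Amotl2 in the ICM and 2iES the length moved by at most 0.04 on the log2 scale. Both scales gave the same direction for these 5 genes, except for Lats1 in the ICM, which was near 0 on both (log2 -0.02 by counts and 0.04 by TPM).

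**Figure D4:**
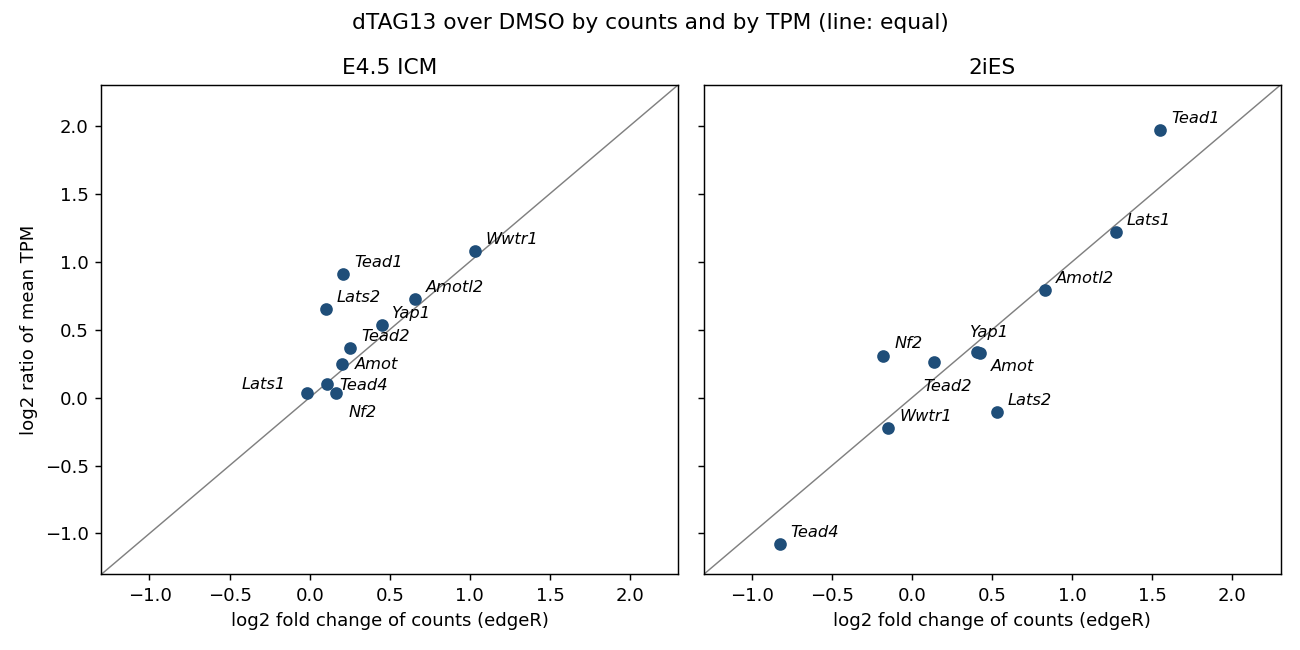
Log2 ratio of mean TPM (vertical axes) against log2 fold change of counts (horizontal axes), dTAG13 over DMSO, for the 10 genes in the E4.5 ICM and in 2iES, with a line of equality. Tead1 and Lats2 lie above the line in the ICM, and in 2iES Tead1 and Nf2 lie above it and Lats2 below.

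The wider pathway was described with 6 lists of related genes. In late 2-cell embryos 1 of the 35 listed genes that could be tested passed, against 7.24% of all genes tested that were lower and 1.32% higher. It was Stk4, encoding the kinase MST1 that activates LATS. Stk4 fell from 65.5 to 86.1 TPM in DMSO to 32.7 to 38.0 TPM in dTAG13 (log2 -1.22 ± 0.11, adjusted p = 5.7e-05). None of 38 passed in morulae, against 0.205% of all genes tested that were lower and 0.161% higher. In the ICM 25 of 40 were higher and 8 lower, against 38.4% and 38.5% of all genes tested, with a median log2 change of 0.41 against 0.01 for all genes, and in 2iES 18 of 38 were higher and 5 lower, against 26.5% and 28.1% of all genes tested, with a median of 0.55 against 0.03. The members' own medians were 0.21 and 0.42. The counts of the smaller lists below stand beside the same shares of all genes. Among the 9 kinases and partners, 5 rose and 2 fell in the ICM, and 6 rose and 2 fell in 2iES. Stk4 fell in the ICM too, from 16.2 and 21.6 TPM to 3.75 and 5.01 TPM (log2 -1.99 ± 0.09, adjusted p = 4.3e-21), and in 2iES (log2 -0.55 ± 0.13, adjusted p = 0.0097), whereas in morulae it did not pass (log2 -0.16, adjusted p = 0.790). Of the 7 cell polarity genes, 6 rose in the ICM and none fell, where 38.4% of all genes rose and 38.5% fell, and 4 rose and 1 fell in 2iES, against 26.5% and 28.1%. In 2iES Scrib, a basolateral polarity scaffold, went from 3.70 and 4.45 TPM to 47.2 and 47.6 TPM (log2 3.34 ± 0.16, adjusted p = 2.9e-05).

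The negative regulators of LATS and YAP gave 5 higher and 1 lower of 7 in the ICM, and 3 higher and 1 lower in 2iES, against 38.4% and 38.5% of all genes in the ICM and 26.5% and 28.1% in 2iES. Ptpn14, a phosphatase that binds YAP, was higher at both, at 0.69 and 0.86 TPM against 3.89 to 4.05 TPM in the ICM (log2 2.17 ± 0.13, adjusted p = 7.2e-18) and at 0.37 TPM in both controls against 3.32 to 3.35 TPM in 2iES (log2 3.16 ± 0.17, adjusted p = 4.4e-05). Of the 8 upstream scaffolds tested, 3 rose and 3 fell in the ICM, and 2 rose and 1 fell in 2iES. In 2iES Amotl1, the third angiomotin, rose from 0.17 and 0.18 TPM to 0.91 and 1.09 TPM (log2 2.43 ± 0.21, adjusted p = 2.1e-04), while Wwc1, encoding the scaffold KIBRA, went from 1.28 and 1.49 TPM to 0.52 and 0.55 TPM (log2 -1.45 ± 0.22, adjusted p = 0.0018). Among other TEAD partners, 3 of 4 rose in the ICM and 1 of 3 in 2iES.

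The genes known as targets of TEAD with YAP did not move as 1 group. In the ICM 3 of 5 rose and 2 fell. Besides Gata3 and Cdx2, Ankrd1 rose, near the floor at 0.03 and 0.19 TPM against 0.38 and 0.42 TPM. Gata3 went from 1.52 and 1.56 TPM to 11 and 11.4 TPM (log2 2.82 ± 0.10, adjusted p = 2.7e-24) and Cdx2 from 0.29 and 0.60 TPM to 1.78 and 2.57 TPM (log2 2.25 ± 0.28, adjusted p = 5.7e-09). Both are also among the trophectoderm markers above. Ccn1 and Ccn2, secreted matrix proteins and widely used readouts of YAP and TAZ, were singled out after their values were seen. Ccn1 fell from 90.9 to 93.5 TPM in DMSO to 36.3 to 38.2 TPM in dTAG13 (log2 -1.35, adjusted p = 1.3e-27) and Ccn2 fell from 51.1 to 52.3 TPM to 26.7 to 27.4 TPM (log2 -1.01, adjusted p = 8.0e-22). In 2iES both rose, Ccn1 by 1.07 (adjusted p = 0.0052) and Ccn2 by 0.90 (adjusted p = 0.0022), and Gata3 did not pass (adjusted p = 0.145). As the pair was chosen for these directions, no test of the difference between the stages is given.

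Over the 8 group means on the log2(TPM + 1) scale, each centred on its own mean, the genes most like Yap1 among 12025 with at least 5 TPM in a group were AI464131 and Srsf1, with root mean square differences of 0.14 for both. The nearest to Tead4 were Impdh1 (0.15) and Mfn1 (0.21), and the nearest to Amotl2 were Fam160a2 (0.23) and Hsd17b4 (0.23). Impdh1, for example, had group means of 29.7 TPM in control morulae, 4.49 TPM in control 2iES and 2.51 TPM in treated 2iES, beside 22.3, 2.51 and 1.19 TPM for Tead4. These likenesses describe 8 points that share their libraries.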

How the data were processed

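Per the labels and the study's methods, RNA of embryos or cells was amplified with SMART-Seq v4 and made into Nextera XT libraries, which do not mark strand. The authors trimmed reads with Trimmomatic 0.39, aligned them with STAR to GRCm38 and ran RSEM. They deposited, per gene and library, expected counts with TPM, FPKM and effective length. Expected counts, which RSEM estimates, were rounded to whole numbers here. Genes were filtered by a count minimum of 10, and libraries were scaled by TMM. Tests used the quasi-likelihood test of edgeR 4.0.16 (R 4.3.3), within each stage for dTAG13 against DMSO. Control levels were tested over the 9 DMSO libraries, and differences between stages over all 18 libraries. P-values were adjusted by Benjamini-Hochberg over all genes tested, and the standard error is the log2 fold change over the root of its F. TPM and FPKM as the authors deposited them gave levels and the expression threshold. P-values measure only the spread between these libraries.

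Alternatives were DESeq2 1.42.0, limma 3.58.1 on log2(TPM + 1) or log2(TPM + 0.1), limma with sample weights, other scalings and filters, 1 fit of all libraries, the replicate block, and leaving out each library. The scripts were tested on simulated data. The members and gene lists were chosen with earlier results of these data known. Named besides the members were Gabpa, up to 4 called pathway genes per stage with the largest changes, and the 2 genes most like Yap1, Tead4 and Amotl2. Ccn1, Ccn2 and the markers Elf5, Krt18 and Hand1 fall outside this rule and were chosen after their values were seen. Positions come from GENCODE M21 and promoters from RefSeq.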

Additional observations from a re-analysis of the deposited data

Results flagged for a closer look

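For 4 results the effect of dTAG13 differed between stages by a direct test of the difference in edgeR. The Wwtr1 effect was larger in the E4.5 ICM than in morulae by 0.93 on the log2 scale (adjusted p = 0.0044), and the 2iES effect minus the ICM effect was -1.14 (adjusted p = 0.0010). The Tead1 effect was larger in 2iES than in the ICM by 1.38 (adjusted p = 0.0043), and the Lats1 effect by 1.33 (adjusted p = 0.017). The timing of treatment and the material differ between these stages, as does the dose between 2iES and the ICM, and they cannot be told apart from stage.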

How the results depend on the processing

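None of the 10 genes passed at late 2-cell or morula under any alternative run. In the E4.5 ICM, 6 passed by edgeR, 3 by DESeq2, 5 by limma, 1 with all 18 libraries in 1 fit, and 8 with upper-quartile scaling or library totals, and leaving out 1 library gave 3 to 7 passed and 0 to 1 called. In 2iES, 4 passed and 2 were called by edgeR, leaving out 1 library gave 2 to 5 passed and 2 to 3 called, and limma on log2(TPM + 1) called 1, as Lats1 was at 0.60 on that scale. For control levels of ICM against morula, limma on log2(TPM + 1) passed 8 genes in place of 4. For the difference between the ICM and morula effects, DESeq2 passed 2, adding Yap1 (0.69, adjusted p = 0.037). Of 1690 values of single genes under alternatives, 50 lost and 43 gained the threshold, 90 changed sign short of it in both fits, and 0 changed sign past it in either.

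With the replicate number as a block, 0 passed at late 2-cell and at morula, 6 in the ICM and 4 in 2iES, the same numbers as without it. Deviations of same-numbered libraries correlated at 0.01 to 0.05 at the embryo stages and at -0.13 in 2iES, so the numbers were not taken as pairs, and a crossed block in 2iES, chosen after seeing the data, passed 4 and called 2. Upper-quartile scaling moved the median of all genes by 0.18 in 2iES, 0.12 at late 2-cell and 0.10 in the ICM, and Yap1 (0.59, adjusted p = 0.036) and Lats2 (0.71, adjusted p = 0.031) passed in 2iES under it, as did Tead4 (0.21, adjusted p = 0.0095) and Nf2 (0.27, adjusted p = 0.022) in the ICM. Lats2 and Amotl2 rest on few counts at late 2-cell, and 2 libraries a group limit the other stages.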
